A study of Mus musculus with 3 samples.

Results

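The cytosolic ribosome carries a fixed set of ribosomal proteins, and this section describes the mRNA levels of that family in mouse CD4 T cells polarised in culture. Genes were taken by name: symbols that begin with Rpl or Rps followed by a digit, together with Rplp0, Rplp1, Rplp2 and Rpsa, without the Rps6k kinases and without names holding -ps. The rule took 86 of the 19741 genes that had a named, usable probe on all 3 arrays. Of these, 76 are the core proteins of the ribosome (30 of the small and 46 of the large subunit), 9 are less common relatives of a core protein, and 1, Rps19bp1, is named after a ribosomal protein it binds and is not part of the ribosome. Between them the members had 172 probes, up to 7 for 1 gene, and the brightest probe stood for each gene. In 84 of 86 members that probe was well above background in both channels on every array. Rpl3l and Rpl10l, relatives of Rpl3 and Rpl10, were not well above background and have no ratio here. Another 9 names that the rule would take, Rps23 among them, had no probe matched and were not analysed here.

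Each array compared 1 culture, labelled with Cy5, with naive CD4 T cells, labelled with Cy3. The naive cells came from spleens of C57BL/6 mice 6 to 8 weeks old by magnetic selection, and all cultures were started from such cells and kept for 3 days with anti-CD3e and anti-CD28 at 10 µg/ml each. Th2 medium added IL-2 at 1 ng/ml, IL-4 at 5 ng/ml and anti-IFN-γ at 2 µg/ml. Th9 medium had IL-2 at 0.2 ng/ml, IL-4 at 1 ng/ml, TGF-β1 at 2 ng/ml and anti-IFN-γ at 5 µg/ml. The medium for induced regulatory T cells (iTreg) had IL-2 at 0.4 ng/ml, TGF-β1 at 5 ng/ml, and anti-IFN-γ and anti-IL-4 at 5 µg/ml each. There was 1 array per culture with no exchange of dyes, so no value has a replicate error, no test between cultures was possible, and a dye effect and a culture effect cannot be told apart in a ratio to naive cells. The 3 arrays lay on 1 slide, and the samples hold no culture given antigen-receptor stimulation alone.

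Ribosomal proteins and ribosomal RNA are assembled into subunits in the nucleolus with the help of many assembly factors, and cells that grow and divide make more of both. The mRNAs of nearly all ribosomal proteins begin with a run of pyrimidines, the 5′ terminal oligopyrimidine (TOP) tract, through which mTOR signalling controls their translation together. Resting T cells are small and leave quiescence upon activation of the antigen receptor, a step in which ribosome production is known to increase. The subunits are built in fixed proportions, so members are usually described as a coordinated group, while a few have roles or relatives of their own.

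A pyrimidine run is a sequence feature of most core members, so short stretches around the annotated start of transcription are shown for genes whose values are given below. All are from RefSeq (build GRCm38.p6), 30 bases long, on the strand of the transcript, with the longest run of C or T within 50 bases of the start in capitals.

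Rps27, chr3:90213631-90213660, minus strand: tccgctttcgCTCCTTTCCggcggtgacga

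Rps21, chr2:180257399-180257428, plus strand: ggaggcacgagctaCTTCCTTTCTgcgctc

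Rps26, chr10:128626484-128626513, minus strand: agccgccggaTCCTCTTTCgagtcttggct

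Rpl22, chr4:152325679-152325708, plus strand: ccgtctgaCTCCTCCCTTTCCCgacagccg

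Rpl24, chr16:55966227-55966256, plus strand: acctcaaacccaCTCCCCgccaatgctgta

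Rpl35, chr2:39005115-39005144, minus strand: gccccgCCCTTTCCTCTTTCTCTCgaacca

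Rpl22l1, chr3:28805499-28805528, plus strand: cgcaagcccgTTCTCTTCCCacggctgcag

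Rps27l, chr9:66946054-66946083, plus strand: cccgcctccaCTCCTCTCCactcctccccg

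Rpl35, a large subunit protein near the exit of the peptide tunnel, is shown for its long run, and its ratios were 0.07, 0.04 and 0.26 by loess and 1.98, 1.69 and 0.98 by median centring in Th2, Th9 and iTreg. The runs measured 9 bases in Rps27, 10 in Rps21, 9 in Rps26, 14 in Rpl22, 6 in Rpl24, 18 in Rpl35, 10 in Rpl22l1 and 9 in Rps27l. In Rps27 the run began 2 bases before the annotated start, whereas in Rps21 it began at base 35 after it. The printed runs of Rpl22, Rpl24 and Rps27l began at −39, −36 and −22 from the annotated start and ended before it. By the annotation these runs are therefore not part of the mRNA. A promoter was listed for 65 members, 56 of them core. A run of at least 8 bases of C or T stood within 50 bases of the start in 47 of 56 core members (83.9%), against 10614 of 27025 genes (39.3%), and the median longest run was 11 bases in core members against 7 in all genes. The letters CCGGAA, searched on both strands of the whole 300-base window, were found in 57.1% of core members and in 16.7% of all genes. The other motifs searched the same way were GGGCGG (60.7% against 38.2%), CACGTG (10.7% against 8.1%) and TATAAA (10.7% against 15.7%). A run or motif here is a match of letters and shows neither a transcription start nor the binding of a factor.

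The ratios of the members turned on how the arrays were scaled, because nearly all members lay at the bright end. The median brightness of core members, the mean log2 signal of both channels, was 17.13 on the Th2 array, 17.16 on the Th9 array and 17.17 on the iTreg array, where all measured genes had medians of 10.05, 10.07 and 9.94. A spot's brightness depends on its probe as well as on its transcript. Core members made up 67 of the 110 genes in the brightest 1% of the Th2 array, 65 of 108 on the Th9 array and 66 of 112 on the iTreg array. No member spot was saturated, and none was called an outlier by the scanner software. Unscaled, the core members had a median Cy3 (naive) signal of 71260, 73556 and 91524 on the Th2, Th9 and iTreg arrays, and a median Cy5 (culture) signal of 282507, 288933 and 244214.

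**Figure D1:**
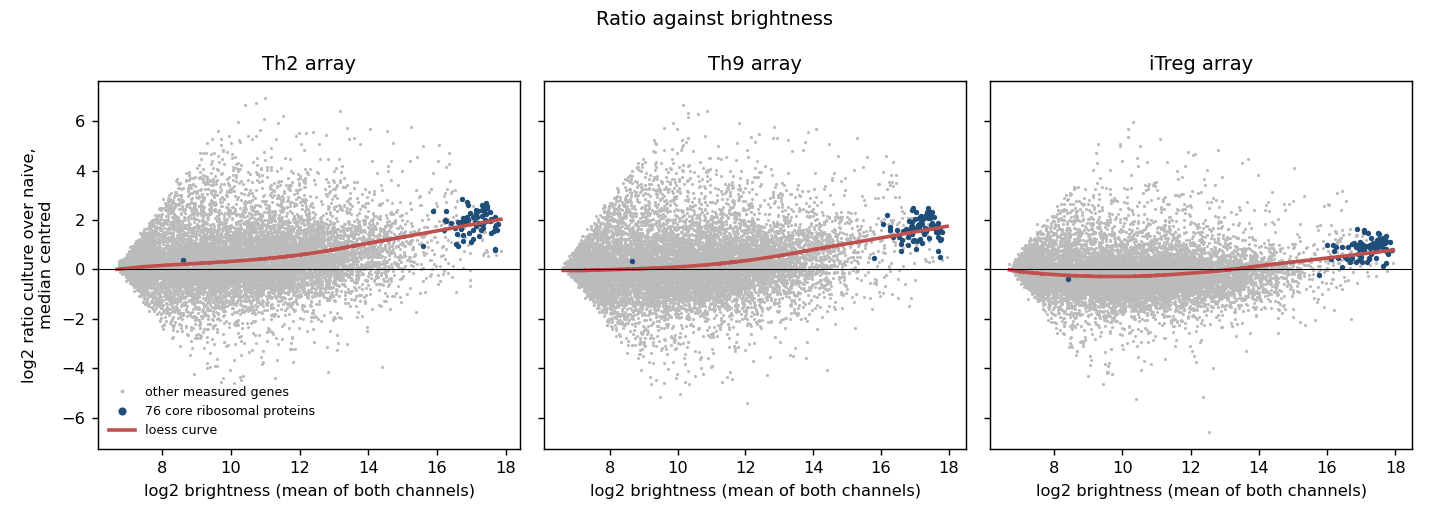
Log2 ratio of culture over naive after median centring (vertical) against log2 brightness (horizontal), 1 panel per array, for measured genes (grey), the 76 core ribosomal proteins (blue) and the loess curve (red). The curve climbs towards the bright end, where the core members form 1 cluster, and stands 1.84, 1.56 and 0.65 above the array's median ratio at their median brightness.

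The results are therefore given under a pair of scalings. Loess subtracts the red curve in the plot of ratio against brightness, so that a gene is read against probes of like brightness. Median centring subtracts 1 number per array, the median ratio of all probes. With it the median of the measured genes stood at 0.33, 0.16 and −0.18 log2 units for Th2, Th9 and iTreg, against −0.02, −0.01 and −0.02 by loess. Over the 84 measured members the median log2 ratio to naive cells by loess was 0.20 (Th2), 0.15 (Th9) and 0.27 (iTreg), and 1.94, 1.64 and 0.88 by median centring. The family was thus near the level of naive cells by loess and higher in all 3 cultures by median centring.

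By loess, 4 members were at least 2-fold higher in Th2 than in naive cells and 2 were at least 2-fold lower, where 14.8% and 14.5% of all measured genes passed these sizes. In Th9, 1 member was higher and 1 lower (15.5% and 15.6% of genes). In iTreg, 1 was higher and 0 were lower (10.2% and 8.15% of genes). In total, 77 members stayed within 2-fold on all 3 arrays, as did 61.6% of the 10353 genes measured on all 3. By median centring, 76 members were at least 2-fold higher in Th2, 73 in Th9 and 25 in iTreg, where 25.4%, 21.4% and 8.19% of all genes were. No member was 2-fold lower by median centring on any array, against 7.4% of genes in Th2, 11.4% in Th9 and 12.0% in iTreg. On all 3 arrays together, 25 members were at least 2-fold higher by median centring and 0 by loess, beside 705 and 754 of the 10353 genes.

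The choice between the scalings rests on bright probes, of which the members are a minority. On the Th2 array 709 probes had a log2 brightness of at least 16, of which 127 were probes of members, 471 matched no gene, 98 belonged to other named genes and 13 to predicted genes. The unmatched probes had a median ratio of 1.85 by median centring, close to the 1.92 of the member probes, and the other named genes had 1.51. On the iTreg array the same 3 medians were 0.67, 0.84 and 0.64. With the member probes given no weight in the curve, the core medians moved little, to 0.20, 0.17 and 0.31 for Th2, Th9 and iTreg. With the unmatched and predicted genes also given no weight, they stood at 0.62, 0.49 and 0.68. When all 6 channels were brought to the same distribution by quantile scaling, they were 0.16, 0.14 and 0.17. The deposited series values, centred on their median, gave −0.01, −0.17 and −0.08, so the sign of the family's median also depended on the processing.

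A further reading came from 15 members that had, beside a used probe of log2 brightness at least 16, a measured probe below 14. Within a gene, the ratio of the dim probe minus that of the used one had a median of 0.56, 0.54 and 0.16 (Th2, Th9, iTreg) by loess and of −0.80, −0.75 and −0.61 by median centring. With unmatched genes, predicted genes and members out of the curve, the median differences were 0.05, 0.23 and −0.16. Single genes still differed there, with a median size of 0.24, 0.39 and 0.27 and a range in Th2 from −0.70 to 1.55. Quantile scaling gave median differences of 0.38, 0.50 and 0.36, and the scanner software's processed signals 0.62, 0.65 and 0.33. For Rpl22, which binds the ribosomal RNA of the large subunit and is needed for normal T cell development, the dim probe gave 1.45, 1.60 and 1.22 by loess and the bright probe 0.84, 0.91 and 1.01. Over the 51 members with several measured probes, the range between probes had a median of 0.20, 0.20 and 0.21 by loess. By loess it exceeded 2-fold on some array in 7 of them, Rpl13a, Rpl17, Rpl31, Rpl39, Rps25 and Rpsa among them.

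**Figure D2:**
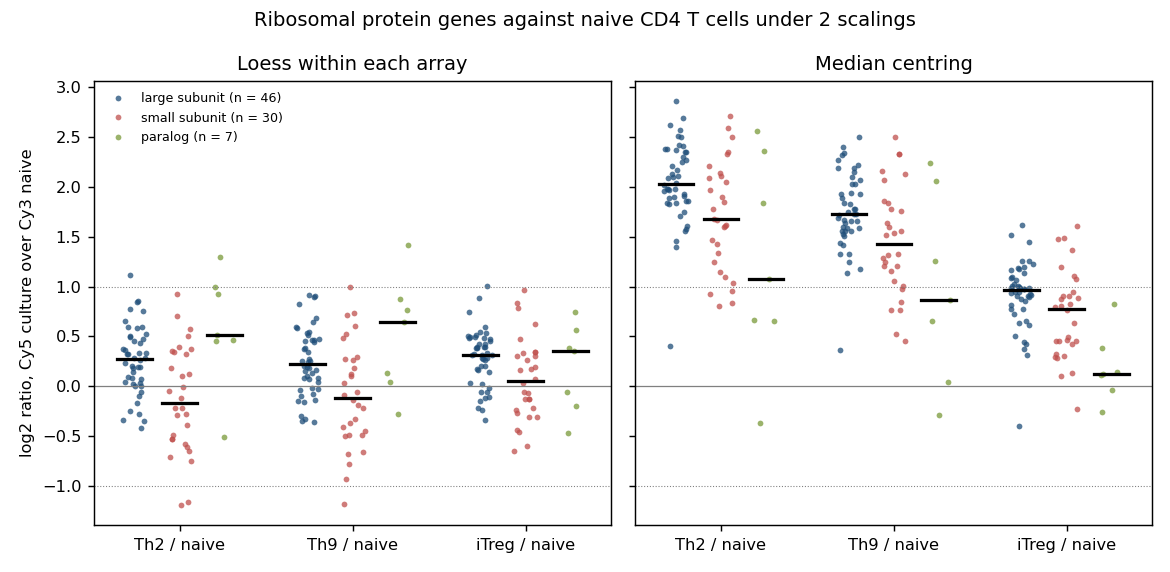
Log2 ratio of culture over naive for each measured ribosomal protein gene (points) by array, with loess on the left and median centring on the right; colours give the subunit or paralog group, black bars the group median, and dotted lines mark 2-fold. By loess the large subunit lies at 0.27, 0.22 and 0.32 and the small at −0.17, −0.11 and 0.05, whereas by median centring all 6 medians are above 0.

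Within an array, core members of like brightness share the shift that a scaling makes, so differences among them changed less with it. Large subunit members by loess had a median of 0.27 (Th2), 0.22 (Th9) and 0.32 (iTreg), and small subunit members had −0.17, −0.11 and 0.05. Median centring gave medians of 2.03, 1.73 and 0.96 for the large and of 1.68, 1.43 and 0.78 for the small subunit. The large subunit thus lay above the small by 0.44, 0.33 and 0.27 log2 units by loess. Over the alternatives in processing that were tried, this gap ranged from 0.28 to 0.44 in Th2, 0.23 to 0.33 in Th9 and 0.18 to 0.29 in iTreg, and kept its sign in every one. The scanner software's error of a single member was 0.20 to 0.23, and the subunits overlapped widely, as the plot of members by array shows. In Th2, 36 of 46 large subunit members were above 0 by loess and 12 of 30 small subunit members were. Without a dye swap, dye and cell type cannot be told apart in this gap.

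Rps27, Rps29, Rps3a1 and Rps21 were among the lowest small subunit proteins. Rps27, a zinc-finger protein of the small subunit, had Cy3 signals of 162874, 171255 and 164677 in naive cells and Cy5 signals of 276664, 279283 and 257858 in Th2, Th9 and iTreg. Its naive signals were alike on the 3 arrays, and the Cy5 signal was the higher on each before scaling. By loess its ratio was −1.19 ± 0.23, −1.18 ± 0.23 and −0.60 ± 0.22 (scanner software's error, n = 1 array each), while median centring gave 0.80, 0.52 and 0.13, so its direction against naive cells reversed with the scaling. Against the median of the core members of the same array, Rps27 was lower by either scaling (−1.37, −1.32 and −0.88 by loess, and −1.17, −1.14 and −0.77 by median centring). Its second probe differed from the first by less than the error of a spot. Rps29, another small zinc-binding protein of that subunit, gave −1.16 ± 0.23, −0.93 ± 0.22 and −0.46 ± 0.21 by loess and 0.83, 0.76 and 0.28 by median centring, and its 3 probes also differed by less than that error. Rps3a1 stood at −0.75, −0.66 and −0.44 and Rps21 at −0.53, −0.78 and −0.65 by loess. By median centring both were above 0 in Th2 and Th9, while in iTreg Rps3a1 was at 0.10 and Rps21 at −0.23.

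At the high end of the core family were Rpl24, Rpl22, Rpl41 and Rpsa. Rpl24, a late-joining protein of the large subunit, had Cy3 signals of 40809, 55179 and 68653 and Cy5 signals of 288416, 319744 and 281790 on the Th2, Th9 and iTreg arrays. Its naive signal was the lowest on the Th2 array. The loess ratios were 1.12 ± 0.23, 0.82 ± 0.22 and 0.88 ± 0.22, and median centring gave 2.86, 2.34 and 1.52. Rpl22 had Cy3 signals of 50320, 50004 and 57916 and Cy5 signals of 302613, 301661 and 254777, with loess ratios of 0.84, 0.91 and 1.01. Rpl41, a very short peptide of the ribosome, had 0.77, 0.89 and 0.74. Rpsa, the laminin receptor that is also a protein of the small subunit, had 0.70, 0.73 and 0.78 by loess and 2.59, 2.33 and 1.49 by median centring. All 4 were above naive cells by both scalings on all 3 arrays. Its dimmest probe put Rpsa at 1.26, 1.56 and 0.52 by loess.

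The stalk of the large subunit, where elongation factors bind, had members with differing ratios. Rplp0, its base, stood at 0.47, 0.53 and 0.53 in Th2, Th9 and iTreg by loess. The acidic proteins that it carries were lower, Rplp1 at 0.02, −0.16 and 0.03 and Rplp2 at −0.42, −0.35 and −0.02. Rpl12, which lies at the base of the stalk, had −0.17, −0.10 and −0.11. By median centring all 4 were above 0 on every array, between 0.65 and 2.38, with the used probe of Rplp0 again the highest. The dimmest of the 3 probes of Rplp0 gave 0.18, 0.23 and 0.31 by loess, still above Rplp1. By median centring that probe gave 1.92, 1.65 and 0.87, which in Th2 was below Rplp1 at 1.97. Rplp1 and Rplp2 had 1 probe each.

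Paralogs, the less common relatives, varied widely. Rps27l, a relative of Rps27 that is induced by p53, had naive signals of 7282, 7416 and 7944 and culture signals of 36497, 40156 and 20049 in Th2, Th9 and iTreg. Its naive channel barely varied, and the iTreg signal was the lowest of the cultures. Its ratio was 1.30 ± 0.24, 1.42 ± 0.24 and 0.74 ± 0.22 by loess and 2.36, 2.24 and 0.82 by median centring. Rps27l was thus above naive cells by both scalings, the opposite end of the family from Rps27 by loess. Rpl39l, a relative of Rpl39 best known from the testis, gave 0.93, 0.87 and 0.56 by loess and 1.08, 0.86 and 0.38 by median centring. Rpl22l1 had 1.00 and 0.76 in Th2 and Th9 and −0.47 in iTreg by loess. By median centring Rpl22l1 had 2.56, 2.06 and −0.04. Rpl36al, a relative of Rpl36a, had 0.51, 0.13 and −0.20 by loess and 1.84, 1.26 and 0.12 by median centring, so its direction in iTreg reversed. Rpl7l1 had 0.46, 0.04 and 0.38 by loess and 0.66, 0.04 and 0.14 by median centring. Rps23rg1, a retrogene of Rps23, had 0.45, 0.64 and 0.35 and by median centring 0.65, 0.65 and 0.11. Rpl39l, Rpl7l1 and Rps23rg1 rest on 1 dim probe each, with signals between 116 and 391 over both channels of all arrays. Rps4l, a relative of Rps4x, stood at −0.51 ± 0.24, −0.28 ± 0.23 and −0.06 ± 0.22 by loess. It was the single measured member below 0 on all 3 arrays by both scalings, though its iTreg value lay within the error. Its probe was also dim, with naive signals of 195, 192 and 183 and culture signals of 121, 149 and 177. Rps19bp1, which binds Rps19 and is also known as a regulator of SIRT1, had 1.06, 0.94 and 0.16 by loess and 1.53, 1.18 and −0.09 by median centring, which reversed its direction in iTreg. Whether probes of relatives also bind the mRNA of the core gene was not tested.

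Between Th2 and Th9 the members differed less than genes did in general, most of which were dimmer. The naive reference and a dye effect of a gene that is the same on each array cancel in such differences, as far as the naive channels are alike. From Th2 to Th9 the members' loess differences had a median of 0.01 and an SD over members of 0.13, against 0.38 over all measured genes. No member differed 2-fold in either direction, as did 1.28% of genes upwards and 1.38% downwards by loess, and 0.975% and 2.33% by median centring. Few other genes reached a log2 brightness of at least 16, where most members lie: 94 by Th2 brightness and 97 by Th9 brightness. By loess 0 such genes differed 2-fold, against 278 dimmer ones among the 10463 genes compared. The absence of 2-fold differences was thus shared by the other bright genes. With so few of them, the counts cannot decide whether the small differences were particular to the family. With median centring the members' median was −0.27 beside −0.23 for all genes. The lowest member differences by loess were −0.42 ± 0.30 for Rpl7l1 and −0.37 ± 0.29 for Rpl36al. Rpl4, the lowest of the core members here, differed by −0.31 ± 0.30.

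The iTreg culture stood apart from Th2 and Th9 in 2 members by loess. Of the 84 measured, 0 were 2-fold higher in iTreg than in Th2 and 2 were 2-fold lower, where 6.87% and 6.69% of genes were. Against Th9 the counts were also 0 and 2 (6.81% and 6.3% of genes). Both times the 2 lower members were Rps2 and Rpl22l1. By median centring no member was 2-fold higher in iTreg than in Th2 or Th9 (2.28% and 3.06% of genes), while 49 were 2-fold lower than in Th2 (26.9% of genes) and 14 were 2-fold lower than in Th9 (16.8% of genes). The family medians were 0.05 and 0.10 by loess and −1.06 and −0.77 by median centring, where all genes had −0.59 and −0.37, so a lower level of the family in iTreg appears with median centring and not with loess.

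Rps2, a small subunit protein near the site where mRNA enters, had naive Cy3 signals of 47787 and 49656 on the Th2 and Th9 arrays and 90098 on the iTreg array. Its Cy5 signals were 305682 in Th2, 320675 in Th9 and 157967 in iTreg. The iTreg array was therefore high in the naive channel and low in the culture channel. Its loess ratios were 0.93 ± 0.22, 1.00 ± 0.22 and −0.31 ± 0.21, and by median centring 2.71, 2.50 and 0.29. The difference of iTreg from Th2 was −1.24 ± 0.30 and from Th9 −1.31 ± 0.30 by loess, and −2.42 and −2.21 by median centring. The second probe of Rps2 gave 1.37, 1.45 and −0.07, the same pattern.

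Rpl22l1, which can take the place of Rpl22 and is regulated by it, followed the same course. Its naive signals were 27278, 31782 and 48430 and its culture signals 156843, 151137 and 67409. As for Rps2, the iTreg array had the highest naive and the lowest culture signal. The iTreg ratio was below that of Th2 by 1.47 log2 units (error 0.31) and below that of Th9 by 1.23 (error 0.30) by loess, a difference of −2.60 and −2.10 by median centring. Rpl22 itself differed by 0.18 ± 0.31 and 0.10 ± 0.31 by loess, within the combined error of its spots.

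**Figure D3:**
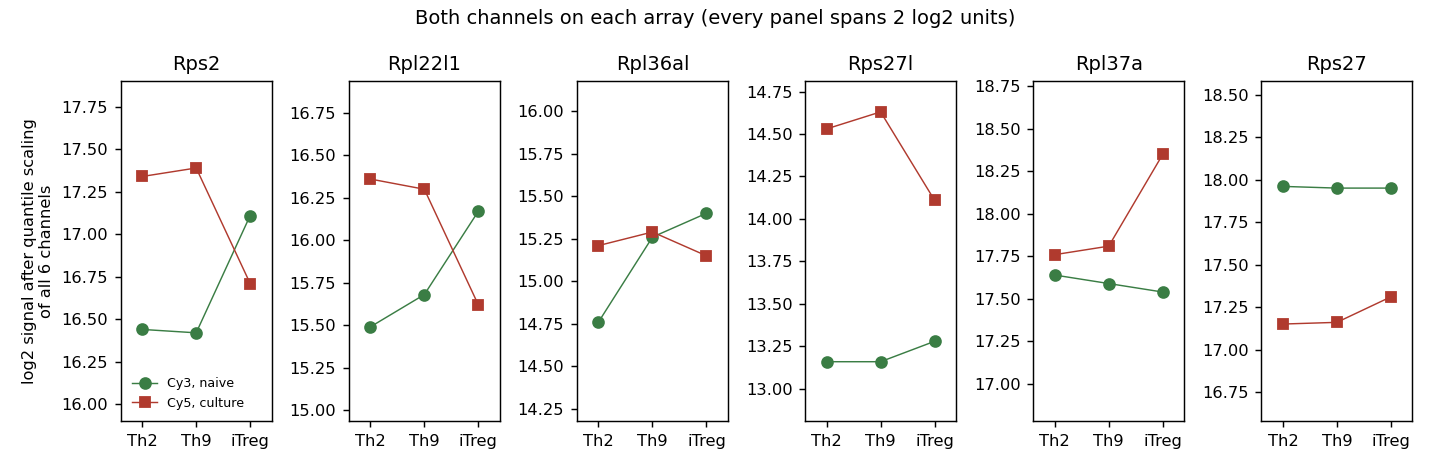
Log2 signal of the naive channel (green circles, Cy3) and the culture channel (red squares, Cy5) on each array after quantile scaling of all 6 channels, for 6 members; lines join the channels across arrays for the eye only. For Rps2 and Rpl22l1 the channels cross on the iTreg array, with the naive channel up and the culture channel down, while for Rps27l, Rpl37a and Rps27 the naive channel is nearly level.

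The naive channel should show the same cell type on each array, yet it moved for these members. After quantile scaling, the Cy3 level of Rps2 was 16.44, 16.42 and 17.11 and its Cy5 level 17.34, 17.39 and 16.71 on the Th2, Th9 and iTreg arrays. From the Th2 to the iTreg array the culture channel changed by −0.64 and the naive channel by 0.67, so the naive channel made up 51.23% of the difference between iTreg and Th2. It made up 50.56% of that between iTreg and Th9. For Rpl22l1 these shares were 47.91% and 41.99%. Over all measured members, taken at any size of difference, the median share was 47.06% and 33.35%. Among other genes 2-fold apart between iTreg and Th2 it was 33.9% for the 18 with a log2 brightness of at least 16 and 0.3% for the 1409 dimmer ones. These other genes were chosen by size and the members were not, so the shares are not directly comparable. Across the 3 arrays, naive-channel SDs had a median of 0.0855 for core members, with the highest at 0.393 for Rps2, against 0.0437 for all measured genes. In the culture channel the order was turned, at 0.0873 for core members and 0.252 for all genes. What moved the naive channel was not tested, and whether the 3 naive samples were 1 extract is not stated in the labels.

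Other members differed between the cultures with varying shares from the naive channel. Rpl37a, a zinc-finger protein of the large subunit, by loess was at −0.28 (Th2), −0.15 (Th9) and 0.42 (iTreg), a difference of 0.70 ± 0.29 and 0.58 ± 0.29 for iTreg over Th2 and Th9, of which the naive channel made up 15.09% and 9.42%. By median centring the same differences were −0.54 and −0.36, less negative than the median of the family. Rps15a differed by 0.74 and 0.53 by loess, with 45.61% and 40.75% from the naive channel, and Rps26, whose pyrimidine run is printed above, by 0.65 and 0.45. Median centring turned these, to −0.45 and −0.37 for Rps15a and −0.53 and −0.46 for Rps26. For Rps27l iTreg differed from Th2 and Th9 by −0.55 and −0.68 by loess, and for Rps19bp1 by −0.90 and −0.78, with the same direction by median centring for both. For these the naive channel made up 21.92% and 22.34% of the difference from Th2. The difference of Rpl36al between iTreg and Th2 was −0.71, and 91.34% of it came from the naive channel.

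Fau and Rack1, parts of the ribosome whose names the rule does not take, lay inside the range of the family. Fau, which encodes the small subunit protein eS30 fused to a ubiquitin-like domain, had −0.05, −0.02 and 0.26 in Th2, Th9 and iTreg by loess. Rack1, a scaffold bound to the small subunit, had 0.74, 0.67 and 0.63. With median centring Fau had 1.92, 1.66 and 1.00 and Rack1 had 2.56, 2.22 and 1.30.

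Other mRNAs that carry a TOP tract were near the ribosomal proteins, with a median over 16 genes of 0.40, 0.37 and 0.38 by loess and 1.93, 1.62 and 0.73 by median centring. By loess 3, 3 and 2 of them were 2-fold higher in Th2, Th9 and iTreg (14.8%, 15.5% and 10.2% of all genes), and 1, 1 and 0 were 2-fold lower (14.5%, 15.6% and 8.15%). The highest was Hnrnpa1, an RNA-binding splicing protein, at 2.59, 2.82 and 1.42 (by median centring 3.42, 3.41 and 1.31), and the lowest Tpt1, a growth-related protein, at −1.27, −1.23 and −0.53. Tpt1 was above 0 by median centring (0.76, 0.52 and 0.25), as Rps27 was.

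**Figure D4:**
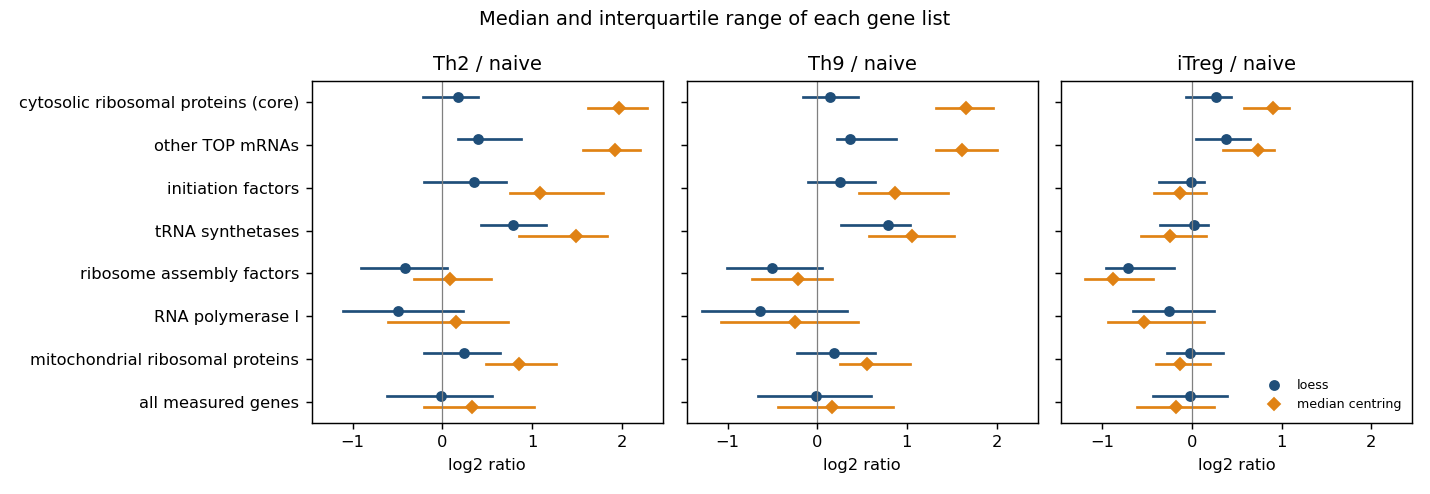
Median (symbol) and interquartile range (line) of the log2 ratio of culture over naive for 7 gene lists and all measured genes, by array, with loess in blue circles and median centring in orange diamonds. Core ribosomal proteins and other TOP mRNAs shift the furthest between the scalings, while ribosome assembly factors lie below 0 in all panels except for Th2 by median centring, at 0.08.

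Genes that assemble ribosomes did not follow the ribosomal proteins. Assembly factors had a median of −0.42 over 49 genes in Th2, −0.50 over 48 in Th9 and −0.72 over 48 in iTreg by loess, and 0.08, −0.22 and −0.88 by median centring, so their direction in Th2 reversed with the scaling. By loess 0 of them were 2-fold higher on any array, and 8, 13 and 12 were 2-fold lower in Th2, Th9 and iTreg, where 14.5%, 15.6% and 8.15% of all genes were. Pes1, which acts with Bop1 in the maturation of the large subunit, was lowest in Th2 at −2.11 and stood at −2.12 and −1.35 in Th9 and iTreg (by median centring −1.95, −2.13 and −1.60). Pwp2, a factor of early small subunit assembly, was at −1.94, −2.43 and −1.81 (by median centring −1.56, −2.30 and −2.08). Nob1, the nuclease that finishes the RNA of the small subunit, was the highest at 0.99, 0.96 and 0.08, and by median centring 1.27, 1.02 and −0.19, which reversed its direction in iTreg. RNA polymerase I and its factors, 13 genes, had medians of −0.50, −0.64 and −0.26, between Taf1d (2.06, 2.08 and 1.26) and, as the lowest member in Th9 and iTreg, the catalytic-core subunit Polr1b (−1.22, −1.66 and −1.56). The polymerase list had 0.15, −0.25 and −0.54 by median centring, a reversal in Th2.

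The factors that use the ribosome split by culture. Aminoacyl-tRNA synthetases, which charge transfer RNA with amino acids, had a median over 19 genes of 0.79 in both Th2 and Th9 and of 0.02 for iTreg by loess, with 9, 5 and 0 of them 2-fold higher (14.8%, 15.5% and 10.2% of all genes). Cars, for cysteine, gave 1.81, 1.42 and 0.60 by loess and 2.45, 1.78 and 0.40 by median centring. Wars, for tryptophan, gave −0.76, −1.06 and −0.74 by loess and −0.22, −0.78 and −0.94 by median centring. Median centring put the list at 1.49, 1.06 and −0.25, so its direction in iTreg reversed. Initiation factors, 30 genes, had medians of 0.35, 0.25 and −0.01 by loess and 1.09, 0.87 and −0.14 by median centring, from Eif4g1, the scaffold of the cap-binding complex, at −1.42, −1.39 and −1.29 to Eif2s2, a subunit of the factor that brings the first tRNA, at 1.66, 1.58 and 0.77. Mitochondrial ribosomal proteins, 77 of 78 measured, had a median of 0.24, 0.19 and −0.02 by loess and 0.86, 0.56 and −0.14 by median centring. By loess 8, 7 and 3 of them were 2-fold higher, and 4, 1 and 1 of the cytosolic family, where 14.8%, 15.5% and 10.2% of all genes were. Mrpl45 was the highest (2.82, 2.52 and 1.99 by loess, and 3.61, 3.03 and 1.88 by median centring). Mrpl15 was the lowest (−1.70, −1.50 and −1.44, and −1.38, −1.38 and −1.72).

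Of the regulators of the family, 13 were measured. Eif4ebp1, the repressor of cap-dependent initiation that mTOR inactivates, was highest at 4.36, 3.97 and 3.22 by loess and 5.06, 4.39 and 3.05 by median centring. Rps6kb1, the kinase of ribosomal protein S6, was lowest by loess at −1.05, −1.18 and −0.88, and had −0.31, −0.70 and −0.95 by median centring. By loess 1 regulator was 2-fold higher on each array (14.8%, 15.5% and 10.2% of all genes), and 2, 2 and 0 were 2-fold lower (14.5%, 15.6% and 8.15%). Myc, a transcription factor that drives ribosome production, had 0.78, 0.50 and 0.64 by loess and 1.33, 0.79 and 0.44 by median centring.

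Il4, Il9 and Foxp3 were each highest in the culture they mark. By loess Il4 stood at 5.08, 1.04 and −0.81 in Th2, Th9 and iTreg, and Il9 at 2.79, 6.52 and 0.14. Foxp3 stood at −0.68, 1.28 and 3.49. Il9 was not well above background in either channel of the iTreg array, nor in the naive channel of the Th2 array. Il4 was not well above background in the iTreg culture channel. Il5, Il13 and Gata3 were also highest in Th2, and Il2ra in iTreg. Other listed markers were not: Irf4, listed for Th9, had 3.87, 3.56 and 3.59, and Ctla4, listed for iTreg, had 3.28, 4.18 and 3.52. All 5 T cell identity genes were well above background in both channels of all arrays. Of 5 B cell markers, 4 were not well above background in any channel, and Cd79b was. NK cell markers were above background in the naive channel in 4 of 4 cases, at signals from 365 to 3240, and in 1 or 2 of 4 in the cultures. Of 5 myeloid markers, 3 to 5 were above background in the naive channels and 2 or 3 in the cultures. The part of such cells in the ratios of the ribosomal proteins was not tested. In bulk RNA, fewer cells of a type and less RNA per cell cannot be told apart.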

How the data were processed

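RNA of 3 cultures (Th2, Th9, iTreg; Cy5) was hybridised against naive CD4 T cell RNA (Cy3) on 3 Agilent 2-colour arrays. The scanner files deposited by the authors hold median spot and background intensity in both channels, per the file headers quantified with Feature Extraction 11.0.1.1 (9.3.2.1 per the submitters' processing notes). Per the file headers they also hold processed intensity, background-subtracted and dye-normalised, and a log10 ratio with its log10 error from the software's model of 1 array. The deposited series table holds log2 ratios, which equalled the log2 processed ratio plus a constant for each array (0.056, 0.021 and 0.037; within 0.01 for 99.7%, 99.6% and 99.7% of probes). Its column medians were 0.14, 0.26 and 0.28.

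Intensities were background-corrected (normexp, offset 50) and scaled by loess (span 0.3, 4 iterations) within each array in limma 3.58.1 (R 4.3.3, with version 1.17.8 of data.table). The other scaling subtracted the median log2 ratio of the array. Control and outlier spots had no weight in the curve, and outlier spots were dropped. Each array had 43020 gene spots, none saturated; the share clear of background was 53.0% to 54.1% for naive and 48.9% to 51.0% for culture RNA. Probes spotted repeatedly had an SD of 0.046 to 0.051 over 8 to 10 spots. Probes were named through their RefSeq accession only (26055 of 39429, 66.1%), since no gene name column was in the files used. A gene was measured when at least 50% of its probe's spots passed the software's test against background in each channel. Values marked ± carry the software's error, combined for differences as the root of summed squares. With 1 array per culture no p-value is given, and genes were classed by size (2-fold). The number of arrays limits the precision.

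Members and lists were chosen with earlier results of these data known. The naming rule took the 3 highest and 3 lowest members of each comparison, the stalk, Rpsa, all paralogs, members outside 2-fold, members whose probes disagreed over 2-fold, the ribosomal proteins outside the name rule, and the highest and lowest of each list. Where many met it (median centring), they are given as counts. Rpl35, Rpl41 and Myc were added after their values were seen, and some genes that the rule takes are not reported here. Promoters were read from RefSeq (GRCm38.p6). Protein sequences were not used here. Alternatives were the scalings named in the report, the software's processed signals, no background correction, the deposited series values, the mean of all probes, no filter on dim probes, no paralogs, outlier spots kept, and a size of 1.5-fold. The background correction and loess functions in R were tested on simulated data. The other steps used Python 3.11.15, pandas 2.3.3, numpy 2.4.6 and matplotlib 3.10.9.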

Additional observations from a re-analysis of the deposited data

Results flagged for a closer look

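In 2 members the iTreg culture stood on one side of naive cells by loess and both other cultures on the opposite side, at least 2-fold apart. Other members, such as Rpl37a and Rps15a, also had opposite signs, at differences under 2-fold. For Rpl22l1, iTreg differed from Th2 by −1.47 and from Th9 by −1.23 log2 units. For Rps2, the differences were −1.24 and −1.31. Each rests on 1 array per culture, and the differences were not tested. By median centring Rps2 was above naive cells on all 3 arrays (2.71, 2.50 and 0.29), and Rpl22l1 was at 2.56, 2.06 and −0.04. Both had a higher naive signal on the iTreg array than on the other arrays, whose part was not tested.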

How the results depend on the processing

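The loess curve set the level of the family against naive cells. By median centring the members' median was 1.94 (Th2), 1.64 (Th9) and 0.88 (iTreg), with 76, 73 and 25 members 2-fold higher and 0 lower in Th2 and Th9. In iTreg against Th2 and Th9 it was −1.06 and −0.77, with 49 and 14 members 2-fold lower. It reversed, among others named in the report, the assembly factors in Th2 (0.08), Rps27 on all 3 arrays (0.80, 0.52 and 0.13), Rps29 likewise (0.83, 0.76 and 0.28), polymerase I in Th2 (0.15), the synthetases in iTreg (−0.25), and the small subunit median in Th2 and Th9 (1.68 and 1.43). By the deposited series values the median reversed in iTreg (−0.08) and in Th9 (−0.17), with 3 lower in Th9, and 0 higher and 2 lower in iTreg. For these the cause was not tested.

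With unnamed genes, predicted genes and members out of the curve, chosen after seeing the data, the medians were 0.63, 0.50 and 0.61, with 16, 11 and 8 members higher and 0 lower in Th2 and Th9, where 1713 of 10947, 1758 of 10776 and 1233 of 11113 genes were higher, and 1465 and 1558 lower in Th2 and Th9. With members alone out of it, 2 were higher in Th9 and in iTreg. Quantile scaling, also added, gave 0 lower in Th2 and Th9 and 3 higher in Th9. Processed signals gave 2 higher and 2 lower in Th9 and 0 higher in iTreg, and the mean of all probes 3 higher in Th9. By construction, leaving out paralogs left 1 higher in Th2, 0 in Th9, and 1 lower in iTreg against Th2 and against Th9. A size of 1.5-fold gave, also by construction, 14 higher and 6 lower in Th2, 16 and 5 in Th9, 9 and 2 in iTreg, 4 and 4 in iTreg against Th2, and 4 lower in iTreg against Th9. No background correction, no filter on dim probes and kept outlier spots moved no count of members by over 1.5 times.

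Planned RefSeq-matched naming equals the naming used, as no other names were read. No paired analysis was possible because each culture has 1 replicate, so the groups share fewer than 2 replicate numbers. Leaving out a replicate was likewise not possible. Signal over background limits Rpl3l and Rpl10l, which have no ratio.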

Other observations

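The pyrimidine run and the ratio could be set side by side in the 56 core members with a listed promoter. The 47 with a run of at least 8 bases near the start had a median loess ratio of 0.19, 0.16 and 0.30 (Th2, Th9, iTreg), and the 9 without had −0.01, −0.04 and 0.20. By median centring the values were 1.98, 1.69 and 0.92 with the run and 1.83, 1.56 and 0.82 without. The differences were not tested.

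The gap between the subunits was narrower in iTreg than in the other cultures. Between iTreg and Th2 the median change of small subunit members was 0.24 by loess and that of large subunit members was −0.00. Against Th9 the medians were 0.21 and 0.04. By median centring they were −0.97 and −1.17 against Th2, and −0.69 and −0.82 against Th9. Rps15a (0.74), Rps29 (0.69), Rps26 (0.65), Rps27 (0.58) and Rps28 (0.56) led the small subunit against Th2 by loess. All had a negative difference by median centring, between −0.67 and −0.45.

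The bright unmatched probes outnumbered those of the members on each array, 486 against 132 on the Th9 array and 455 against 125 on the iTreg array. What they detect is not known from the files used here.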
